A study of Homo sapiens with 6 samples.

Results

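ERBB2, the receptor tyrosine kinase also called HER2, lies on chromosome 17q12 in a cluster of genes that are often amplified with it in adenocarcinomas of the esophagogastric junction and in breast cancer. The 9 neighbours described here are GRB7, STARD3, PGAP3, MIEN1, CDK12, MED1, PPP1R1B, ORMDL3 and GSDMB. They were taken by name as genes around ERBB2 on 17q12-q21, with ERBB2 itself left out, by a rule that uses no measured value. All 9 were found among the 60480 gene identifiers of the count table. RNA-seq was performed on poly(A) RNA of OE-19 cells, an established line of adenocarcinoma of the esophagogastric junction. There were 3 libraries of control cells ("control"), titled shControl and described as Puro. In 3 libraries, IGF2BP3 had been knocked down by shRNA (shIGF2BP3, "IGF2BP3 KD"). IGF2BP3 is an RNA-binding protein that reads m6A marks on mRNA, and the comparison asks which transcripts change when it is depleted. The sources used here name no culture, clone or hairpin for each library, so p-values measure only the spread between these libraries, which may be technical.

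An amplified segment can carry a driver gene together with passengers, and the neighbours of ERBB2 have varied functions. GRB7 is an adaptor that binds phosphorylated receptors, MIEN1 is a membrane-anchored protein linked to migration, and PGAP3 remodels the lipid of GPI anchors. STARD3 moves cholesterol between late endosomes and the endoplasmic reticulum, ORMDL3 restrains serine palmitoyltransferase at the start of sphingolipid synthesis, and GSDMB is a pore-forming gasdermin. CDK12 phosphorylates RNA polymerase II during elongation, MED1 is a Mediator subunit that contacts nuclear receptors, and PPP1R1B, also called DARPP-32, inhibits protein phosphatase 1. OE-19 is known as an ERBB2-amplified line. RNA counts do not measure copy number, and in bulk RNA fewer cells of a kind and less RNA per cell cannot be told apart.

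Total counts were 58966114 to 69989087 in control libraries and 53424071 to 63008137 in IGF2BP3 KD libraries. Expression is given as CPM, the count per unit of library size after TMM scaling, which assumes that most genes are unchanged. The targeted gene, IGF2BP3, was counted at 6532 to 7416 reads in each control library and at 777 to 794 reads in each IGF2BP3 KD library. All 8 epithelial markers examined were detected, but KRT7 only at a mean of 3.51 CPM in control and 3.05 CPM in IGF2BP3 KD libraries. The summed level of the 8 markers was 6332 to 6419 CPM in control and 6312 to 6421 CPM in IGF2BP3 KD libraries, to which KRT7 added little. Within this level sum, EPCAM and MUC1 rose by 11.3% and 10.3% (edgeR adjusted p = 0.003 and 0.0058). KRT8 fell by 3.89% and KRT18 by 4.96% (edgeR adjusted p = 0.038 and 0.032). These changes were of the size seen in several neighbours of ERBB2. The calls of EPCAM and MUC1 held in all 6 fits that left out a library, those of KRT8 and KRT18 in only 1 and 2. KRT8 and KRT18 also share 525 exon bases. The 11 markers of immune, fibroblast and endothelial cells summed to 22.8 to 25.4 CPM in control and 30.5 to 35.4 CPM in IGF2BP3 KD libraries. COL1A1 made up nearly all of this sum and rose from 21.7 to 30.8 CPM (edgeR quasi-likelihood fit, Benjamini-Hochberg adjusted p = 0.00078), while CD3E and COL1A2 had 0 counts in every library and each of the other markers had a mean under 1 CPM in both groups. Whether this marker difference has a part in the differences among the neighbours of ERBB2 was not tested.

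Promoter sequences are shown for the neighbours whose windows share a motif. RefSeq promoter windows on GRCh38.p14, from 250 bases before to 50 bases after a gene's start, were found for 6 of the 9 genes: MED1, CDK12, STARD3, PGAP3, MIEN1 and ORMDL3. CCGGAAG, the core of many ETS-family binding sites, or its reverse complement CTTCCGG, was searched on both strands and was present in the windows of PGAP3, MIEN1 and STARD3, against 10.3% of 35116 windows of the same length. The motif was picked after these windows had been read, so its count is a description only. By RefSeq's starts, PGAP3 and ERBB2 begin back to back on opposite strands, and their windows overlap over 136 bases that hold the motif once in each orientation. That shared stretch, chr17:39688008-39688143 on the plus strand, is printed first, followed by the windows of MIEN1 (chr17:39730483-39730782, minus strand) and STARD3 (chr17:39636894-39637193, plus strand), with the motif in capitals.
PGAP3 and ERBB2: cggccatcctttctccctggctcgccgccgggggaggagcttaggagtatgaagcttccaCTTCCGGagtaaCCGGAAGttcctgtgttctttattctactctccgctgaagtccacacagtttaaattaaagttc
MIEN1: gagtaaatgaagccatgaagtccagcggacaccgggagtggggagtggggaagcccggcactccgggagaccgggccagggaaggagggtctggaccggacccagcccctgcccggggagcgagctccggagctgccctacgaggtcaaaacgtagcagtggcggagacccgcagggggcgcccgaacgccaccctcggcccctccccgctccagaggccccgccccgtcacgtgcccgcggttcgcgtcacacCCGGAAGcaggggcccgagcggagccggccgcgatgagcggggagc
STARD3: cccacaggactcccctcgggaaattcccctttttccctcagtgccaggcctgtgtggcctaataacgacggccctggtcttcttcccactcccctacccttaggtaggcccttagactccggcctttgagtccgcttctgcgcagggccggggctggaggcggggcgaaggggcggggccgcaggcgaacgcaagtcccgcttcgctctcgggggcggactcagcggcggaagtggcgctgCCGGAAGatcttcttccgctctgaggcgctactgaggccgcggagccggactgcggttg
The windows of MIEN1 and STARD3 hold the motif once each, and whether it has a part in any change of these genes was not tested.

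UGGAC, written TGGAC in DNA, is the motif the study names for IGF2BP3 binding, and it was searched in the 3′ UTR of the canonical GENCODE v44 transcript of each gene. All 9 neighbours held it, at 17 sites in all, and ERBB2 held none in its 614 bases. The word is common: 62.2% of 13753 3′ UTRs of tested genes hold it. Among 3′ UTRs of similar length the share ranged from 25.4% for the 217 bases of GSDMB to 88.8% for the 3228 bases of CDK12. The sites of the neighbours that changed are shown, 1 per gene, with TGGAC in capitals and 10 bases on either side, read 5′ to 3′ on the gene's strand from hg38.
GRB7, chr17:39746955-39746979, plus strand: acccatccagTGGACtctggggcgc
MIEN1, chr17:39729028-39729052, minus strand: gtgggctttcTGGACagctactcct
STARD3, chr17:39663073-39663097, plus strand: ggtggagcacTGGACtccggggccc
ORMDL3, chr17:39922444-39922468, minus strand: aagaagcctcTGGACactgccagag
GSDMB, chr17:39904618-39904642, minus strand: atttcatacaTGGACttctgattaa
A match is a description of the letters and not a measured binding site. GATTACT and ACACATC, words of 7 bases examined earlier in these data, were found in 0 of the 9 neighbours, against 7.79% and 9.65% of all 3′ UTRs. Because these shares are low and were not matched for length, absence from 9 genes carries little information.

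The neighbours fell into a high and a low set in control cells. Levels are compared between genes as CPM per kilobase of exon length. Exon length here is the union of all annotated exons of a gene. It can be far longer than a single transcript, as for GSDMB at 5905 bases against 1584 in its canonical transcript. For CDK12 these lengths are 12975 and 8287 bases, so the order within the high set and within the low set can depend on this choice. ERBB2 ranged from 1209 to 1298 CPM per kilobase over the 3 control libraries, GRB7 from 751 to 799, PGAP3 from 519 to 550 and MIEN1 from 478 to 495. The outermost annotated starts of PGAP3, MIEN1 and GRB7 in GENCODE lie 8.9, 42.6 and 50 kb beyond that of ERBB2, so PGAP3 has a start upstream of the RefSeq start used for its promoter window. MIEN1 was 35.5-fold above the next gene, ORMDL3, at 13.5 to 13.8 CPM per kilobase. MED1 followed at 10.0 to 11.1, GSDMB at 5.32 to 6.25, CDK12 at 5.50 to 5.56 and STARD3 at 4.42 to 5.01 CPM per kilobase. Control libraries of GSDMB and CDK12 overlapped, and those of every other pair of adjacent genes in this order did not. PPP1R1B was lowest at 0.904 to 0.973 CPM per kilobase.

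**Figure D1:**
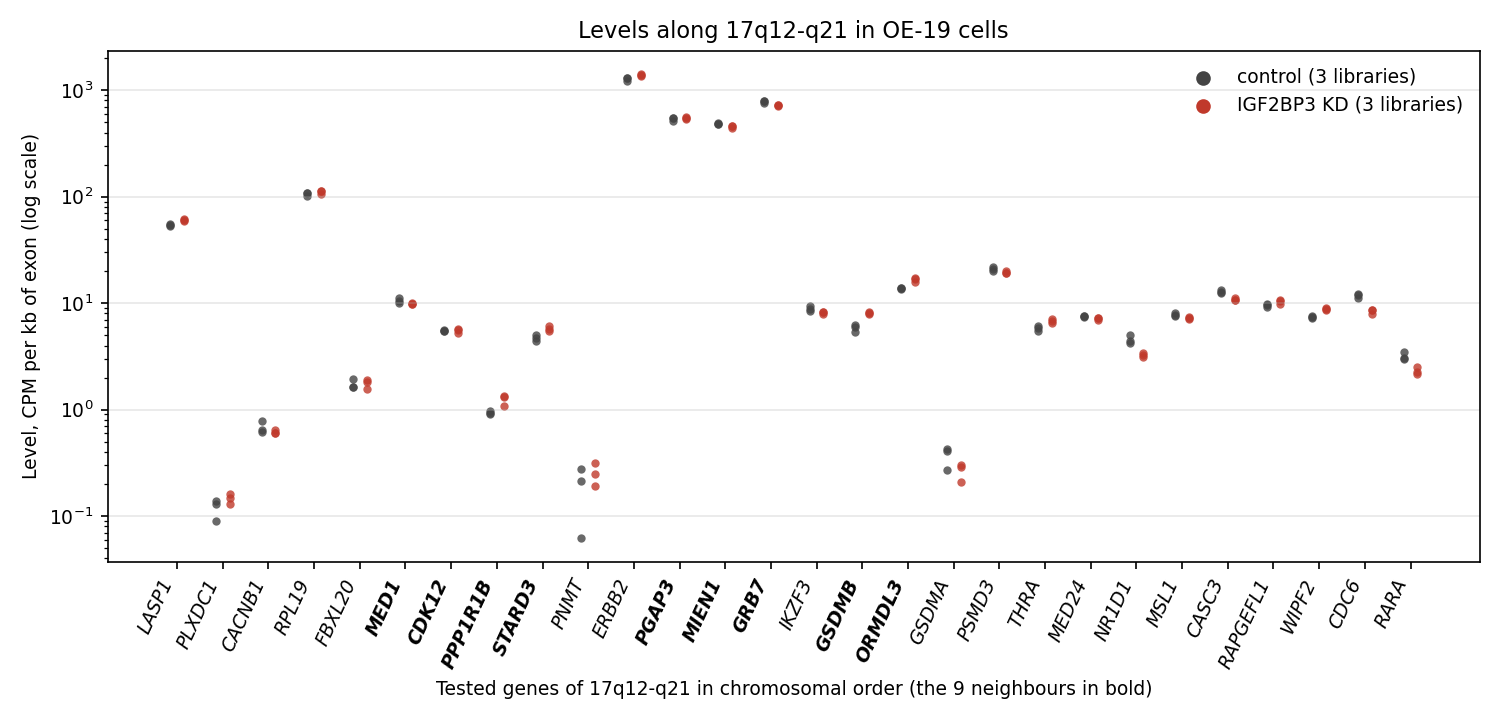
Level in CPM per kilobase of exon (log axis) of the 28 tested genes of 17q12-q21, in chromosomal order with the 9 neighbours in bold, each point being 1 of the 3 control or 3 IGF2BP3 KD libraries. PGAP3, MIEN1 and GRB7 sit next to ERBB2 at 439 CPM per kilobase or more, and the other 6 neighbours lie under 18 CPM per kilobase in every library.

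The high level was not a smooth function of distance. By the outermost annotated starts, STARD3 and PPP1R1B begin 50.8 and 61.2 kb before ERBB2, a distance not far from that of GRB7 on the other side. These distances depend on the start taken for each gene. Among tested genes with a known exon length, STARD3 nevertheless ranked 7313 per kilobase and PPP1R1B ranked 12587. GRB7, PGAP3 and MIEN1 ranked 28, 44 and 51, and ERBB2 ranked 21. Between STARD3 and ERBB2, TCAP, a sarcomere protein gene, had 5 to 21 counts per library and PNMT, the enzyme that makes adrenaline, had 5 to 23. PGAP3, of the high set, spans chr17:39671122-39696797, so part of it lies between STARD3 and the ERBB2 start at 39687914. High levels were thus not confined to the GRB7 side of that start. Farther out, between GRB7 and GSDMB, ZPBP2 had 0 counts in every library, which allows up to 0.0556 CPM at 3 counts in the shallowest library. IKZF3, a lymphoid transcription factor gene in the same interval, was at 90.0 ± 4.61 CPM (SD, n = 3) in control cells, or 8.89 CPM per kilobase, a level between those of MED1 and GSDMB. PGAP3, MIEN1 and GRB7 together took 0.552% to 0.583% of all counts in control libraries, against 0.0275% to 0.028% for the other 6 neighbours and 1.24% to 1.33% for ERBB2.

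Upon IGF2BP3 KD, 2 of the 9 neighbours fell (GRB7 and MIEN1), 3 rose (STARD3, ORMDL3 and GSDMB) and 4 did not pass the test (PGAP3, CDK12, MED1 and PPP1R1B). All 9 passed the filter on low counts, and a gene is called at an adjusted p under 0.05 (edgeR quasi-likelihood fit, Benjamini-Hochberg over 19778 genes). Over all tested genes, 10.6% were called lower and 9.87% higher, which for a list of 9 would come to about 1 gene in each direction. The counts of 2 and 3 are small, and the list as a whole was not tested. Values of the control and IGF2BP3 KD libraries did not overlap for 7 of the 9 genes, against 35.8% of all tested genes. That share was not matched for expression level. Values also did not overlap for 12 of 18 tested genes farther out in the region and 11 of 20 tested paralogs and partners. The same held for 6 of 8 epithelial markers and 1 of 4 tested markers of other cells. A high share was thus not confined to the neighbours. The changes of the neighbours were small: log2 fold changes ran from -0.12 to 0.46, with a median of 0.03 beside 0.01 over all tested genes. Both genes that fell were of the high set, and the 3 that rose were of the low set. This split is not clean: MED1, of the low set, had the same log2 fold change as MIEN1 (-0.09) with a larger SE (0.04 against 0.03) and was not called, and ERBB2, the highest gene of the locus, rose.

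**Figure D2:**
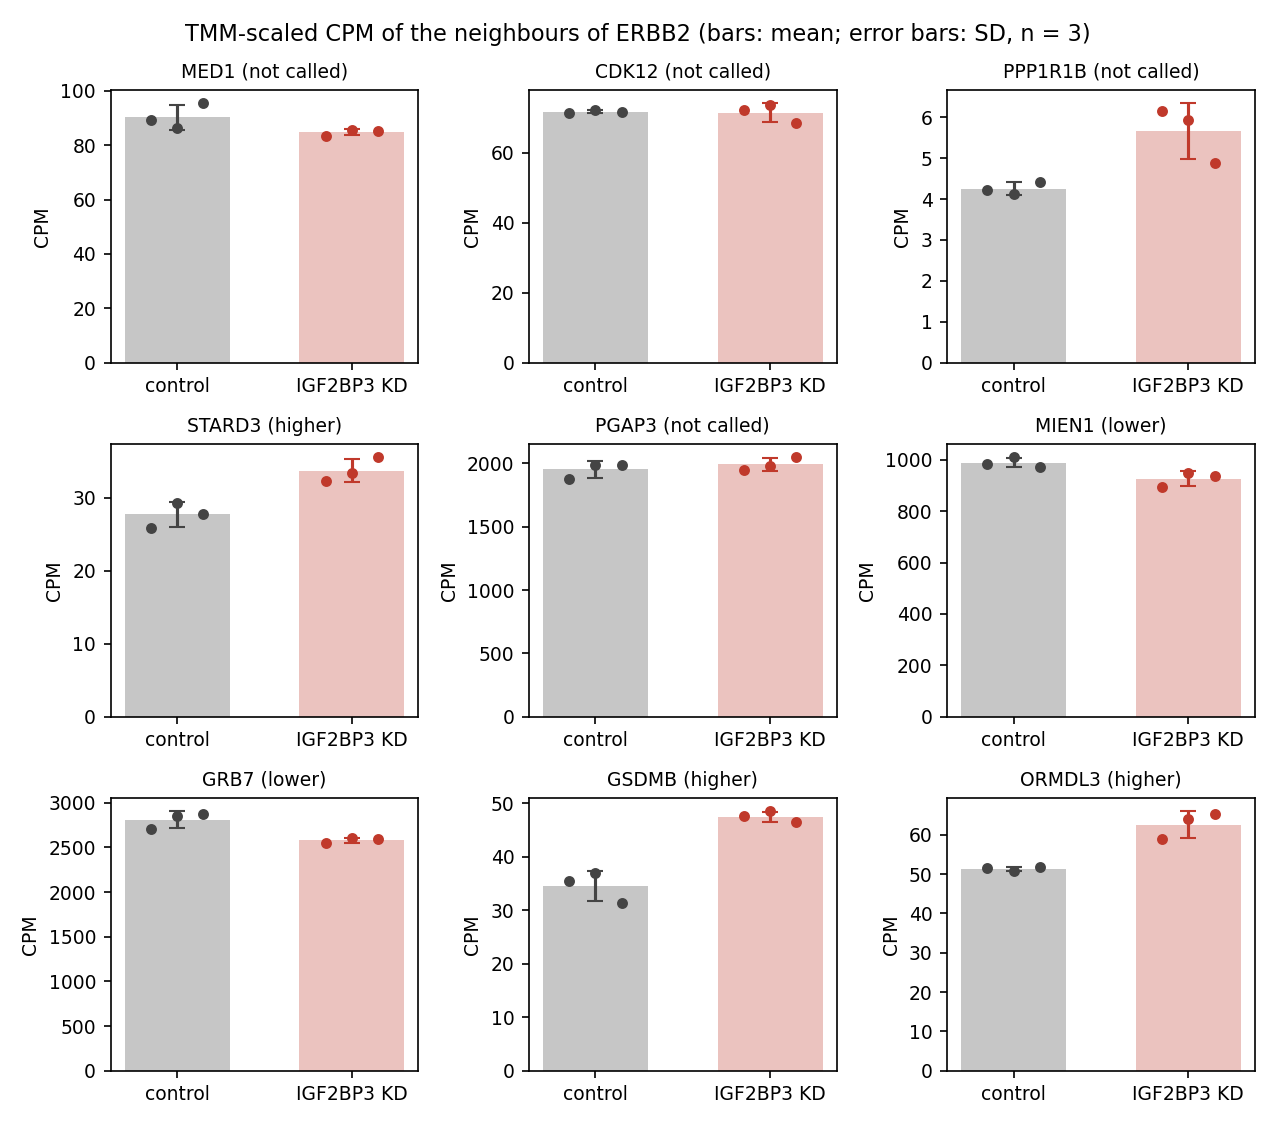
TMM-scaled CPM of each neighbour in the 3 control and the 3 IGF2BP3 KD libraries (points), with bars for the group means and error bars for the SD (n = 3). Points of the groups are separate for every gene except PGAP3 and CDK12, with GRB7, MIEN1 and MED1 lower and STARD3, PPP1R1B, ORMDL3 and GSDMB higher in IGF2BP3 KD libraries.

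GRB7 (ENSG00000141738, chr17:39737927-39747291, plus strand) was at 2702, 2854 and 2873 CPM in control replicates 1, 2 and 3, and at 2549, 2605 and 2590 CPM in IGF2BP3 KD replicates 1, 2 and 3. All 3 knockdown libraries lay below all 3 control libraries. The mean went from 2809 ± 93.9 to 2581 ± 29.1 CPM (SD, n = 3), a log2 fold change of -0.12 (SE 0.02, 95% interval -0.17 to -0.07) with an adjusted p of 0.0037 by edgeR. The counts behind it, 137546 to 198821 per library, let a change of this size be seen, and leaving out any single library kept it between -0.15 and -0.11. GRB10, a paralog of GRB7 on another chromosome and also a receptor-binding adaptor, fell from 104 ± 3.45 to 90.7 ± 0.989 CPM, with a log2 fold change of -0.20 and an edgeR adjusted p of 0.0034. GRB14, the remaining family member, had 15, 39 and 20 counts in control replicates 1 to 3 and 11, 0 and 0 counts in IGF2BP3 KD replicates 1 to 3. The groups did not overlap, but with a log2 fold change of -2.49 and a wide 95% interval of -4.95 to -0.04 GRB14 did not pass the test (edgeR adjusted p = 0.16).

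MIEN1 (ENSG00000141741, chr17:39728496-39730532, minus strand) read 985, 1009 and 973 CPM in control replicates 1 to 3 and 894, 948 and 937 CPM in IGF2BP3 KD replicates 1 to 3. The lowest control library was above the highest knockdown library. Its log2 fold change was -0.09 (SE 0.03, 95% interval -0.15 to -0.04) with an edgeR adjusted p of 0.026. The call was lost without IGF2BP3 KD replicate 1 (adjusted p = 0.10), without control replicate 2 (adjusted p = 0.081) and with no filter on low counts (adjusted p = 0.070). Of its 2037 exon bases, 571 overlap ERBB2 on the opposite strand. The strand setting of the authors' counting is not given in the sources used here. How reads in the bases shared by MIEN1 and ERBB2 were assigned is therefore not known.

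PGAP3 (ENSG00000161395, chr17:39671122-39696797, minus strand), the third gene of the high set, had 1876, 1991 and 1987 CPM in control replicates 1 to 3 and 1945, 1983 and 2046 CPM in IGF2BP3 KD replicates 1 to 3. The groups overlapped. The log2 fold change was 0.03, with a 95% interval of -0.03 to 0.09 and an edgeR adjusted p of 0.53. PGAP3 shares 144 exon bases with ERBB2. PGAP1, which removes an acyl chain from the inositol of GPI anchors, rose from 21.5 ± 2.24 to 30.6 ± 1.77 CPM (log2 fold change 0.51, edgeR adjusted p = 0.0011), and PGAP2, which acts in the same fatty acid remodelling as PGAP3, had a log2 fold change of 0.13 and did not pass (adjusted p = 0.19).

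ERBB2 itself (chr17:39687914-39730426, plus strand) rose from 13074 ± 516 to 14337 ± 279 CPM, with a log2 fold change of 0.13 (95% interval 0.08 to 0.19) with an edgeR adjusted p of 0.0030. The 3 genes of the high set next to it were therefore also read as counts per 1000 ERBB2 counts of the same library, a ratio that needs no scaling between libraries and that was added after the values were seen. GRB7 had 217, 213 and 215 counts per 1000 ERBB2 counts in control replicates 1 to 3 and 180, 183 and 177 in IGF2BP3 KD replicates 1 to 3. MIEN1 had 78.9, 75.3 and 72.9 in control and 63.3, 66.6 and 63.9 in IGF2BP3 KD replicates. PGAP3 had 150, 149 and 149 in control and 138, 139 and 140 in IGF2BP3 KD replicates. For each of these genes every knockdown library was below every control library. From the means of the log ratios, the differences relative to ERBB2 were -16.2% for GRB7, -14.6% for MIEN1 and -6.97% for PGAP3. Over all 9 ratios, 8 did not overlap between groups, 5 of them lower and 3 higher in IGF2BP3 KD libraries, and PPP1R1B overlapped. Of the same ratio in all 19777 tested genes other than ERBB2, 39.2% did not overlap, 31.5% lower and 7.69% higher in IGF2BP3 KD libraries, so a lower ratio to ERBB2 was common among all genes. A two-sided exact permutation test gave p = 0.1 for each of the 8, the smallest that 3 against 3 libraries allow (adjusted over the 9 ratios, 0.113). All of these ratios share ERBB2 as denominator, which itself rose.

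**Figure D3:**
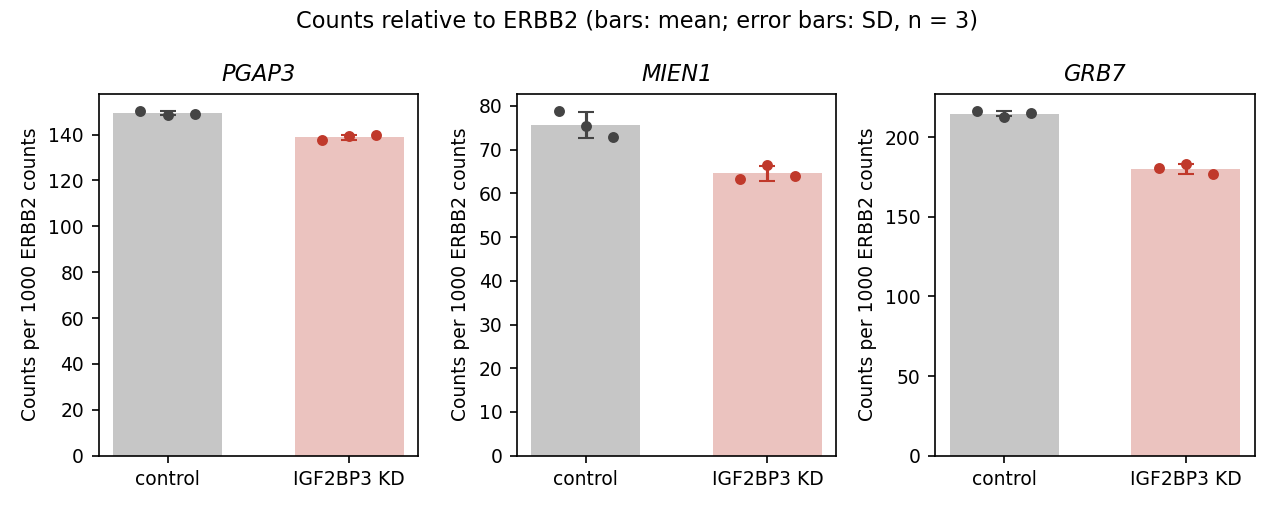
Counts of GRB7, PGAP3 and MIEN1 per 1000 counts of ERBB2 in each control and IGF2BP3 KD library (points), with bars for the mean and error bars for the SD (n = 3). The 3 knockdown libraries lie below the 3 control libraries for each gene, at 177 to 183 against 213 to 217 for GRB7.

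Among the lipid genes, STARD3 (ENSG00000131748, chr17:39637090-39664201, plus strand) had 25.9, 29.3 and 27.8 CPM in control replicates 1 to 3 and 32.3, 33.4 and 35.5 CPM in IGF2BP3 KD replicates 1 to 3. The groups did not overlap. The gene rose by 21.8%, a log2 fold change of 0.28 (SE 0.07, 95% interval 0.14 to 0.43) with an edgeR adjusted p of 0.011. Without IGF2BP3 KD replicate 3, its highest library, the log2 fold change was 0.24 and the adjusted p 0.057. STARD3NL, a paralog that lacks the cholesterol-binding domain, was at 16.1 ± 1.42 CPM in control and 17.1 ± 0.863 CPM in IGF2BP3 KD cells and did not pass the test.

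ORMDL3 (ENSG00000172057, chr17:39921041-39927601, minus strand) was nearly identical in the 3 control libraries, at 51.5, 50.7 and 51.7 CPM, and stood at 58.9, 63.9 and 65.2 CPM in IGF2BP3 KD replicates 1 to 3. All knockdown libraries were higher. It rose by 22.2% (log2 fold change 0.29, SE 0.05, 95% interval 0.18 to 0.40, edgeR adjusted p = 0.0020) and kept the call in all 6 fits that left out a library. Its paralogs ORMDL1 and ORMDL2 had log2 fold changes of -0.16 and -0.06 and did not pass the test (edgeR adjusted p = 0.088 and 0.65). ORMDL2 shares 1182 of its 2688 exon bases with other genes, so its counts are uncertain. SPTLC1, a subunit of the serine palmitoyltransferase that ORMDL proteins restrain, rose from 70.0 ± 2.33 to 135 ± 2.44 CPM, and its log2 fold change was 0.95 (SE 0.04, edgeR adjusted p = 6.4e-08). It had the largest absolute change among the called genes of the lists examined apart from IGF2BP3. SPTLC2, the partner subunit, was at 143 ± 5.77 CPM in control and 137 ± 3.05 CPM in IGF2BP3 KD cells, with overlapping groups and an adjusted p of 0.26.

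GSDMB (ENSG00000073605, chr17:39904595-39919854, minus strand), next to ORMDL3, had 35.5, 36.9 and 31.4 CPM in control replicates 1 to 3 and 47.6, 48.5 and 46.6 CPM in IGF2BP3 KD replicates 1 to 3. Every knockdown library was above every control library. The gene rose by 37.3%, the largest called change among the neighbours, with a log2 fold change of 0.46 (SE 0.06, 95% interval 0.32 to 0.60) and an edgeR adjusted p of 0.00047. Leaving out any single library kept the call and a log2 fold change of 0.39 to 0.50. GSDMD, the gasdermin cut by inflammatory caspases, rose from 50.5 ± 3.17 to 58.2 ± 0.338 CPM (log2 fold change 0.21, edgeR adjusted p = 0.019), but that call held only when control replicate 2 was the library left out, and was lost without any other single library. GSDMA was under 1 CPM, with overlapping groups, and GSDMC and GSDME were too low to be tested.

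Among the genes of transcription, CDK12 (ENSG00000167258, chr17:39461486-39567559, plus strand) had 71.3, 72.1 and 71.6 CPM in control replicates 1 to 3 and 72.1, 73.7 and 68.5 CPM in IGF2BP3 KD replicates 1 to 3. The groups overlapped, and the 95% interval of the log2 fold change was -0.10 to 0.09. This interval does not reach the estimates of GRB7 (-0.12) and STARD3 (0.28), but it overlaps the interval of GRB7 (-0.17 to -0.07). Differences between these genes were not tested. CDK13, the paralog of CDK12, and CCNK, its cyclin, did not pass the test either, with log2 fold changes of 0.13 and -0.08. MED1 (ENSG00000125686, chr17:39404285-39451272, minus strand) had 89.3, 86.2 and 95.4 CPM in control replicates 1 to 3 and 83.6, 85.7 and 85.2 CPM in IGF2BP3 KD replicates 1 to 3. The knockdown libraries were all lower, although the highest of them came close to control replicate 2. With a log2 fold change of -0.09 (95% interval -0.19 to 0.01) MED1 did not pass (edgeR adjusted p = 0.20). Of 7 other Mediator genes examined, MED13 fell from 223 ± 9.37 to 156 ± 5.55 CPM (log2 fold change -0.52, edgeR adjusted p = 5.3e-06) and MED17 from 29.8 ± 0.420 to 23.2 ± 2.02 CPM (log2 fold change -0.36, edgeR adjusted p = 0.0038). MED12, MED14, MED23, MED24 and CDK8 did not pass, with log2 fold changes from -0.06 to 0.12. MED17 shares 2244 exon bases with TAF1D and an unnamed gene, so its counts are uncertain. The same limit holds for MED1, which shares 754 exon bases with an unnamed gene. CCNK shares 4893 of its 8220 exon bases with CCDC85C.

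PPP1R1B (ENSG00000131771, chr17:39626740-39636626, plus strand) was the lowest neighbour, with 259 to 289 counts per control library and 308 to 368 counts per IGF2BP3 KD library. It had 4.22, 4.11 and 4.42 CPM in control replicates 1 to 3 and 6.15, 5.93 and 4.89 CPM in IGF2BP3 KD replicates 1 to 3. The groups did not overlap, but the knockdown libraries were widely spread, with a coefficient of variation of 11.9%. The log2 fold change of 0.41 (SE 0.14, 95% interval 0.10 to 0.73) did not pass the edgeR test (adjusted p = 0.069), while DESeq2 called it (adjusted p = 0.046).

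**Figure D4:**
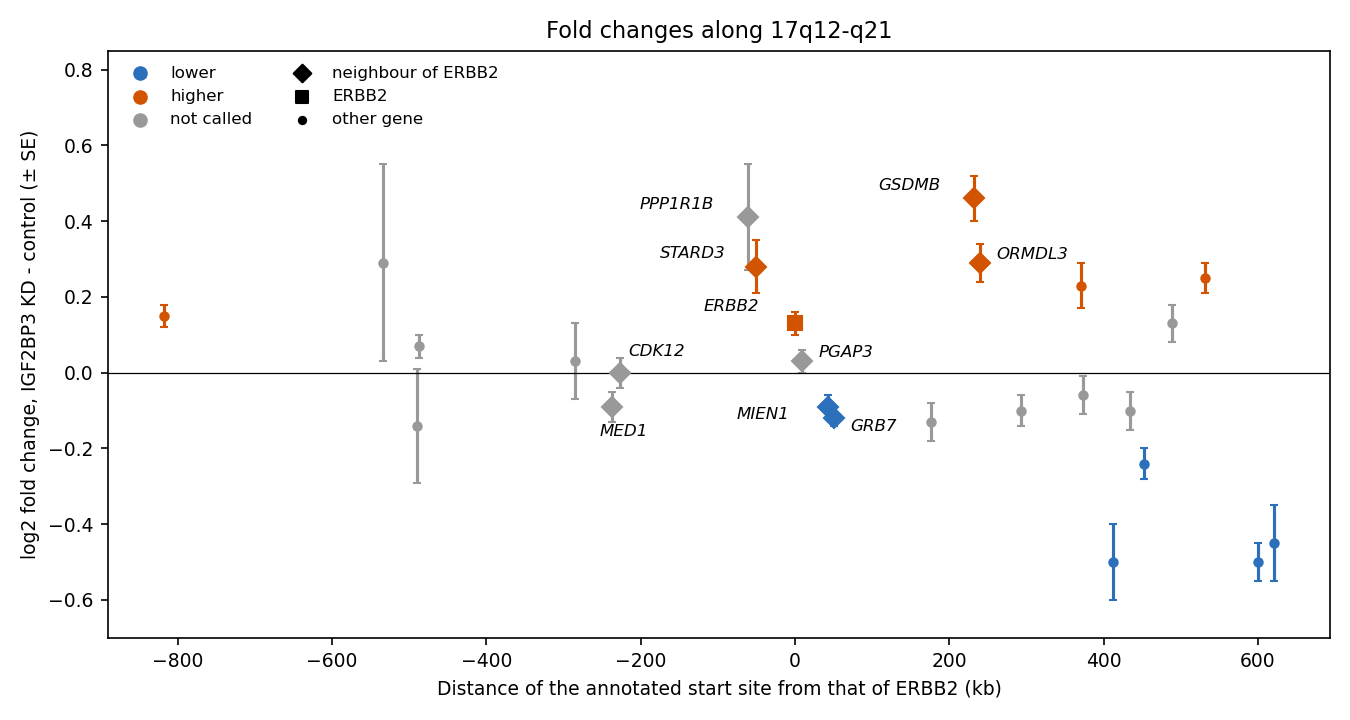
Log2 fold change of IGF2BP3 KD over control, with error bars of 1 SE, against the distance of each gene's start from that of ERBB2 in kb, for 26 of 28 tested genes of 17q12-q21 (those with an SE under 0.3). GRB7 and MIEN1 lie below 0 beside ERBB2 above 0, and lower and higher calls both occur on the side of higher coordinates.

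Farther out in 17q12-q21, a list of 24 other genes was examined, of which 18 could be tested. CDC6, which loads the replicative helicase, fell by 0.50 on the log2 scale (edgeR adjusted p = 7.9e-05), NR1D1, a circadian repressor, by 0.50, RARA, a retinoic acid receptor, by 0.45, and CASC3, part of the exon junction complex, by 0.24. LASP1, an actin-binding protein, rose with a log2 fold change of 0.15, WIPF2, a regulator of actin assembly, with 0.25, and THRA, a thyroid hormone receptor, with 0.23. The call of THRA was lost without control replicate 1, IGF2BP3 KD replicate 2 or IGF2BP3 KD replicate 3, and THRA shares 473 exon bases with NR1D1 on the opposite strand. RARA shares 1015 exon bases with its antisense RARA-AS1 and other genes, and LASP1 and CASC3 overlap other annotated genes as well. These 4 lower and 3 higher calls among 18 genes came with a median log2 fold change of -0.08. Over all tested genes, 10.6% were called lower and 9.87% higher, and this list as a whole was not tested. IKZF3, between GRB7 and GSDMB, was at 82.5 ± 2.69 CPM in IGF2BP3 KD cells, with a log2 fold change of -0.13 and an edgeR adjusted p of 0.090. Calls in both directions were thus found among the genes nearest to ERBB2 as well as farther along the chromosome.

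Of the 22 paralogs and partners of the neighbours, 20 were tested. They held 3 genes that fell (GRB10, MED13 and MED17) and 3 that rose (SPTLC1, PGAP1 and GSDMD), with a median log2 fold change of -0.05. The shares called over all tested genes were 10.6% lower and 9.87% higher. These counts are small, and the list as a whole was not tested. Set beside their paralogs, STARD3 (0.28) and ORMDL3 (0.29) had larger log2 fold changes than STARD3NL (0.08) and ORMDL1 (-0.16). GRB7 (-0.12) changed less than GRB10 (-0.20). GSDMB (0.46) rose more than GSDMD (0.21), which was also called higher, though in only 1 of 6 fits that left out a library. GSDMA (-0.46, SE 0.34) was not called. It had only 29 to 65 counts per library and overlapping groups, so its direction is uncertain. These differences between genes were not tested.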

How the data were processed

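RNA-seq libraries of OE-19 cells were sequenced by the authors as paired reads. Per the labels and the study's methods, reads were cleaned with fastp, aligned to hg38 with HISAT2 and counted per gene with featureCounts, and the deposited values are raw counts without normalization. Versions, annotation release and strand setting are not given in the sources used here. The library kit is directional.

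Of 60612 rows, 132 repeats of 44 identifiers were left out. Counts were analysed with edgeR 4.0.16 in R 4.3.3 (TMM; filterByExpr, minimum count 10, minimum total 15; quasi-likelihood test without a block; Benjamini-Hochberg adjustment over 19778 genes, threshold 0.05). DESeq2 1.42.0, the test named in the study's methods, was an alternative, beside RLE and upper-quartile scaling, other filters, a replicate block and each library left out. Libraries of the same group differed beyond counting noise (chi-square per degree of freedom 9.86 to 17.6, against 46.3 to 58.2 across groups), and none was a copy of another. The edgeR fit was tested on simulated counts, with planted changes larger than those called among the neighbours. The other steps had no test on simulated data. Intervals cover the spread between libraries. Exon lengths, positions and 3′ UTRs come from GENCODE v44 on hg38, and promoter windows from RefSeq on GRCh38.p14. RefSeq windows of GRB7, PPP1R1B and GSDMB were not used here.

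The rule for the neighbours uses no measured value, but the neighbours, like the gene lists and the tests, were chosen with earlier results of these data known. Named genes are all 9 neighbours, ERBB2, IGF2BP3, every called gene of both further lists, TCAP, PNMT, IKZF3 and ZPBP2, and the closest paralogs and partners.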

Additional observations from a re-analysis of the deposited data

How the results depend on the processing

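The number of neighbours called lower was 2, and 1 with no filter on low counts, where more genes were tested. In the leave-one-out fits it ranged from 1 to 2, and the number called higher from 2 to 3. MIEN1 lost its call as described above in 3 alternatives and STARD3 in 1, DESeq2 added PPP1R1B, and the cause was not tested. GRB7, ORMDL3, GSDMB and ERBB2 kept their direction and call in every alternative run, and no called gene changed sign. The log2 fold change of CDK12, never called, lay on both sides of 0, from -0.03 without IGF2BP3 KD replicate 2 to 0.02 without IGF2BP3 KD replicate 3. That of PGAP3, also never called, was -0.00 without control replicate 1. RLE and upper-quartile scaling changed no call among the neighbours, and the median log2 fold change of all tested genes stayed between 0.004 and 0.018. Without division by exon length, GRB7 ranked 16, PGAP3 26, CDK12 3316, MED1 2550 and ERBB2 2 of the tested genes. Over all settings, 4 to 6 other genes of 17q12-q21 were called lower and 2 to 3 higher, and 3 to 4 paralogs and partners lower and 2 to 4 higher. Leaving out a library moved the difference in the log2 ratio to ERBB2, added after the data were seen, to between -0.27 and -0.24 for GRB7, -0.11 and -0.10 for PGAP3, and -0.26 and -0.20 for MIEN1.

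The replicate numbers share only a number: same-numbered control and IGF2BP3 KD libraries had correlations of 0.014, -0.062 and -0.007 over 11571 genes. With the replicate number as a block, 2 neighbours were lower and 3 higher, as without it, and the counts of 4 lower and 3 higher genes of 17q12-q21 and of 3 lower and 3 higher paralogs and partners were also equal. Depth limits TCAP, PNMT and GRB14, with at most 39 counts per library, ZPBP2, at 0 counts (3-count floor 0.0431 to 0.0556 CPM), and PPP1R1B, whose counts were the lowest of the neighbours.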
